A study of Mus musculus with 2 samples.

Results

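Collagen genes encode the chains that assemble by threes into the fibres and sheets of the extracellular matrix, and this report describes which of these chains each cell type of the newborn mouse lung held. The members were every gene of the deposited count tables whose symbol has the form of a collagen alpha chain, such as *Col1a1* or *Col4a3*. This rule, which uses names and no measured value, found 44 genes of the 27254 listed in the tables of both batches.

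As background, fibrillar collagens of types I, III and V build the tensile fibres of the interstitium and of the vessel and airway walls. Type IV collagen is the network-forming collagen of basement membranes, the thin sheets under epithelium and endothelium and around contractile cells; *Col4a1* and *Col4a2* chains make its widespread form, and *Col4a3*, *Col4a4* and *Col4a5* chains make the form known from the alveolar and glomerular basement membranes. Type VI chains form beaded filaments beside the basement membrane, types XII, XIV and XVI coat fibrils (the FACIT group), types XV and XVIII are the multiplexins of basement membrane zones, and types XIII, XVII, XXIII and XXV span the cell membrane.

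Whole lungs of wild type C57BL/6J mice at postnatal day 1 (PND1) were dissociated with enzymes, red blood cells were lysed and single cells were captured in droplets (Drop-seq), a method that reads the 3′ end of each mRNA and counts molecules by a unique molecular identifier (UMI). The samples were 2 replicate batches of the same group, Batch 1 and Batch 2, with 1 library each and no treatment or mutation in either. The mice were female and the cells came from 2 individual animals; which animal gave which batch is not given in the sources used here. All comparisons are therefore between cell classes within these 2 batches, and the batches are the replicates.

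Batch 1 gave 2388 cells with 4432553 UMIs and Batch 2 gave 5615 cells with 18232639 UMIs after cells with more than 10% mitochondrial UMIs were left out; these were 25.68% of the cells deposited for Batch 2 and 0.04% of those for Batch 1. Clustering of these cells without the collagen genes gave 19 named classes. They were called by cell type names with the ending "-like" from marker genes or, for 2 of them, by their leading markers. The classes held 7288 cells after the predicted doublets, 51 in Batch 1 and 118 in Batch 2 over all clusters, were left out. Classes held between 11 and 837 cells in Batch 1 and between 11 and 1131 in Batch 2, and no cell barcode was shared. A pair of class sums in Batch 1 stood apart. The 11 neutrophil-like cells of Batch 1 held 39.4 collagen UMIs per 10000 UMIs against 6.04 in Batch 2, and their alveolar fibroblast markers summed to 47.8 per 10000 (9 of 11 markers seen) against 5.91 (8 of 11). Of the 96 AT1-like cells of Batch 1, 52 held a UMI of the 5 endothelial markers, whose sum was 17.7 per 10000 with all 5 seen, against 14 of 274 cells and 0.508 with *Tie1* at 0 in Batch 2. The lymphatic-like class of Batch 1 was mixed by the study's labels, with 12 lymphatic and 2 vascular endothelial cells, 6 matrix fibroblasts (MatrixFB-1), 3 immune and fibroblast contaminants and 1 proliferative lymphocyte. *Col1a2* was at 5.47 per 10000 in this class of Batch 1, against 0 UMIs in the 12 cells labelled lymphatic. This class entered the endothelial comparison, and the part of its mixture there was not tested. The main AT1-like levels are given with and without cells that held markers of another lineage, and the comparisons were also run without the neutrophil-like class.

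The genes of type IV collagen lie in head-to-head pairs, and windows around the start sites of 3 of them are printed because the pairs recur in the levels below. Each window is the RefSeq sequence of GRCm38.p6, 5′ to 3′ on the gene's own strand, from 250 bases before to 50 bases after the start site. The *Col4a1* window is chr8:11312777-11313076 on the minus strand, the *Col4a2* window is chr8:11312555-11312854 on the plus strand, and the *Col4a4* window is chr1:82586800-82587099 on the minus strand. Capitals mark the motif CCAAT, the motif GGGCGG and the motif TATAAA read on either strand, 3 motifs that do not overlap here.
Col4a1: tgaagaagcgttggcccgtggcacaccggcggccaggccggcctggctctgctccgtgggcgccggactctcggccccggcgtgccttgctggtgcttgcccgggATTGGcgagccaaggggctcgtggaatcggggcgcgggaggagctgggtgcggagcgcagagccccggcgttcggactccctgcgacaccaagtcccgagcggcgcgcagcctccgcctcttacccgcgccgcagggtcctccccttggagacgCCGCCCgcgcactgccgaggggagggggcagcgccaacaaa
Col4a2: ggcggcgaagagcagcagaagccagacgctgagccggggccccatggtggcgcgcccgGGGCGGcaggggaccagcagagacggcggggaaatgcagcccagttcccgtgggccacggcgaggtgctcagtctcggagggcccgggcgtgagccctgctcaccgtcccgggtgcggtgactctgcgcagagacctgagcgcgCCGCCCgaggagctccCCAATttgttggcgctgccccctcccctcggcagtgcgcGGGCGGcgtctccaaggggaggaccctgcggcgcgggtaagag
Col4a4: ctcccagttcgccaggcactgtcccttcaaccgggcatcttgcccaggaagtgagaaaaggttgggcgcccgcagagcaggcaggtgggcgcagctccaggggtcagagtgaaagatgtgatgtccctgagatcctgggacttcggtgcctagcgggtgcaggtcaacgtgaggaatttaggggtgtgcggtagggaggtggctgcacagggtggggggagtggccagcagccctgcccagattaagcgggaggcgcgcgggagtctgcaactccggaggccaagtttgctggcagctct
The *Col4a1* and *Col4a2* windows share 78 bases, read from opposite strands, since the annotated starts (GENCODE M21 on GRCm38) are 21 bases apart. The start of *Col4a3*, 72 bases from that of *Col4a4*, lies inside the *Col4a4* window. CCAAT was found once in each of the first 2 windows and GGGCGG 1 time in *Col4a1* and 3 times in *Col4a2*; the *Col4a4* window held none of the 3 motifs. Of 32851 promoters of this length, 37.4% held CCAAT, 35.7% GGGCGG and 13.6% TATAAA; of the 38 windows listed for 35 members, 13, 23 and 5 did. GC content was 74.0% in the *Col4a1* window, 73.7% in that of *Col4a2* and 63.3% in that of *Col4a4*.

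Collagen mRNA was unevenly spread over the classes. Levels are UMIs of a gene per 10000 UMIs of a class in a batch, and because Drop-seq counts the 3′ end of each molecule they are not scaled by gene length. In adventitial fibroblast-like cells all collagen genes together reached 396 per 10000 in Batch 1 and 193 in Batch 2, the highest of the 19 classes in Batch 1. Mesothelial-like cells, named for the covering layer of the lung, held 139 and 211, and airway smooth muscle-like cells 167 and 134. The mesothelial-like class had 20 cells in Batch 1 and 11 in Batch 2. Its leading genes included the mesothelial *Upk3b*, *Lrrn4* and *Upk1b* but also *Igfbp5* and *Sfrp2*, which the paper places in MatrixFB-2 fibroblasts. Before a predicted doublet was left out, the class had 21 cells in Batch 1. By the study's labels 19 of these were MatrixFB-2, 1 was MatrixFB-1 and 1 was vascular endothelium. Pericyte-like cells (78.7 and 86.2), vascular smooth muscle-like cells (88.3 and 75.5), alveolar fibroblast-like cells (86.3 and 55.9) and a mesenchymal cluster rich in *Enpp2* and *Agt* (63.2 and 70.0) followed, with overlapping values. Outside the mesenchyme and mesothelium the highest sum was 34.9, in AT1-like cells of Batch 2, apart from the neutrophil-like cells of Batch 1. Macrophage and monocyte-like cells, taken here as a reference for free RNA, which was itself not measured, held 4.19 and 2.17. Of all collagen UMIs in named classes, mesenchymal classes gave 67.0%, epithelial 19.3%, endothelial 10.9%, mesothelial 2.1% and immune 0.7%.

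**Figure D1:**
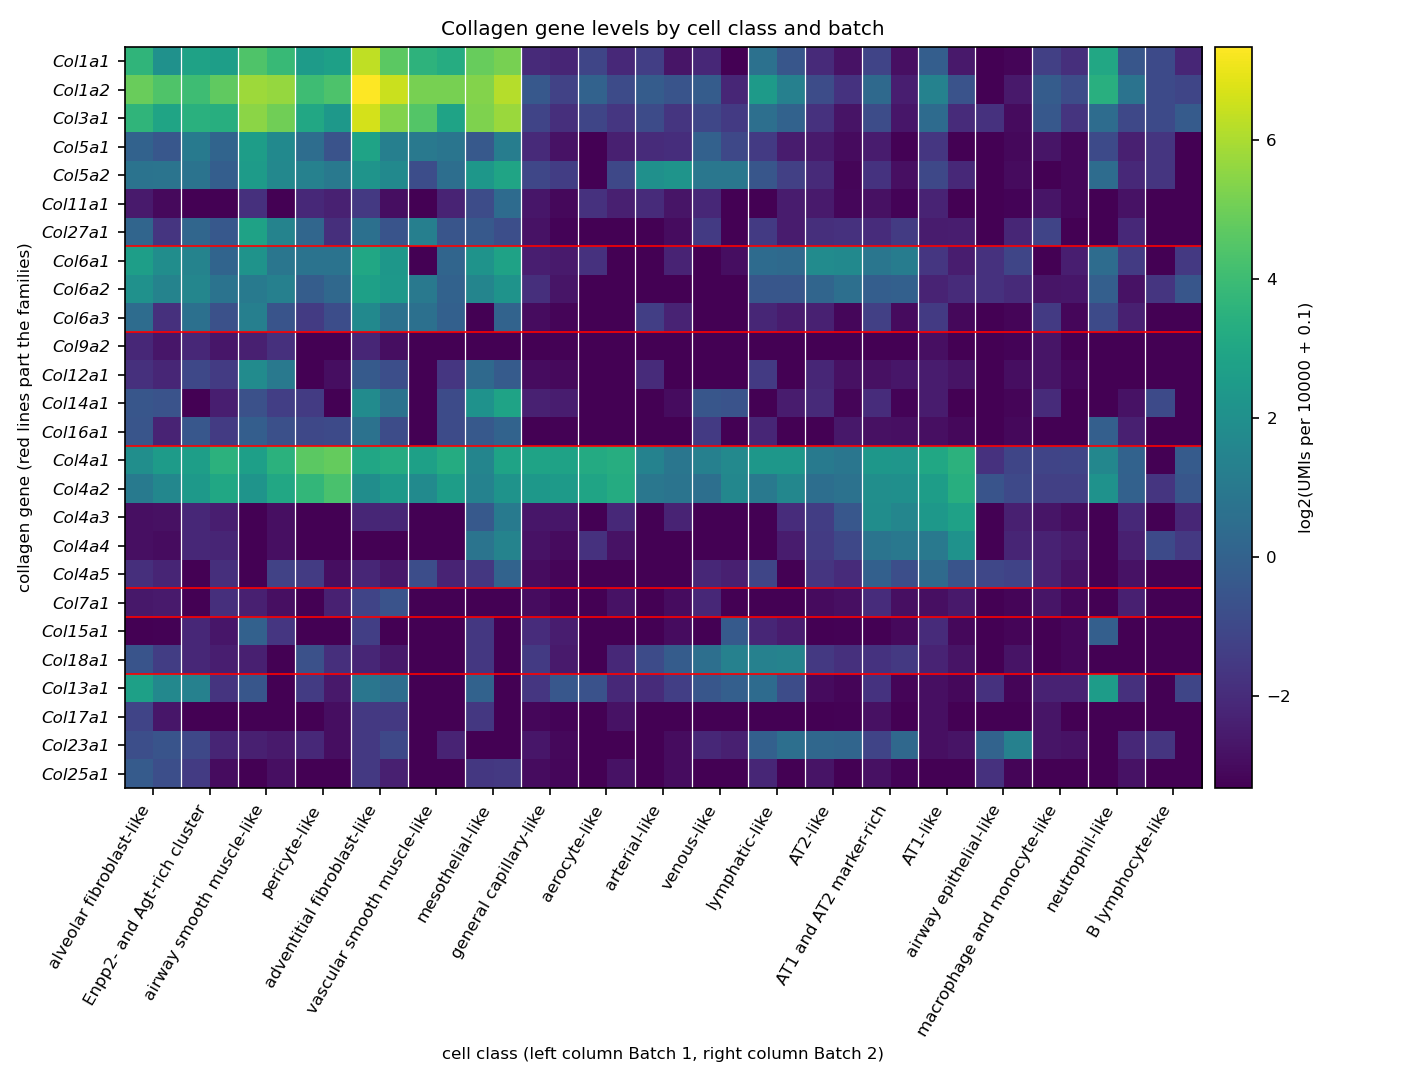
Level of each described collagen gene (rows, by family) in each cell class and batch (columns), as UMIs per 10000 UMIs of the class, on a log colour scale. Fibrillar chains are high in the mesenchymal and mesothelial columns, with *Col1a2* at 162 and 89.6 in adventitial fibroblast-like cells, and *Col4a3* and *Col4a4* are high in AT1-like cells.

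The families made up different shares of the collagen pool in different classes. Fibrillar chains were 90.1% and 83.7% of collagen UMIs in adventitial fibroblast-like cells of Batch 1 and Batch 2, 82.9% and 81.5% in mesothelial-like cells, and 84.1% and 79.2% in airway smooth muscle-like cells. Basement membrane chains were 84.9% and 91.0% in aerocyte-like cells, the large flat capillary endothelium of the alveolus, 79.8% and 85.8% in general capillary-like cells, and 76.3% and 95.4% in AT1-like cells, the flat alveolar epithelium. Pericyte-like cells, which wrap capillaries, were split, with 44.7% and 40.3% fibrillar and 49.6% and 54.9% basement membrane chains. In AT2-like cells, the surfactant-producing epithelium, beaded filament chains were 38.1% and 42.2%. Over whole libraries the fibrillar share was 67.0% in Batch 1 and 44.8% in Batch 2, and the basement membrane share 15.8% and 38.7%; the batches also differ in their mix of classes.

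**Figure D2:**
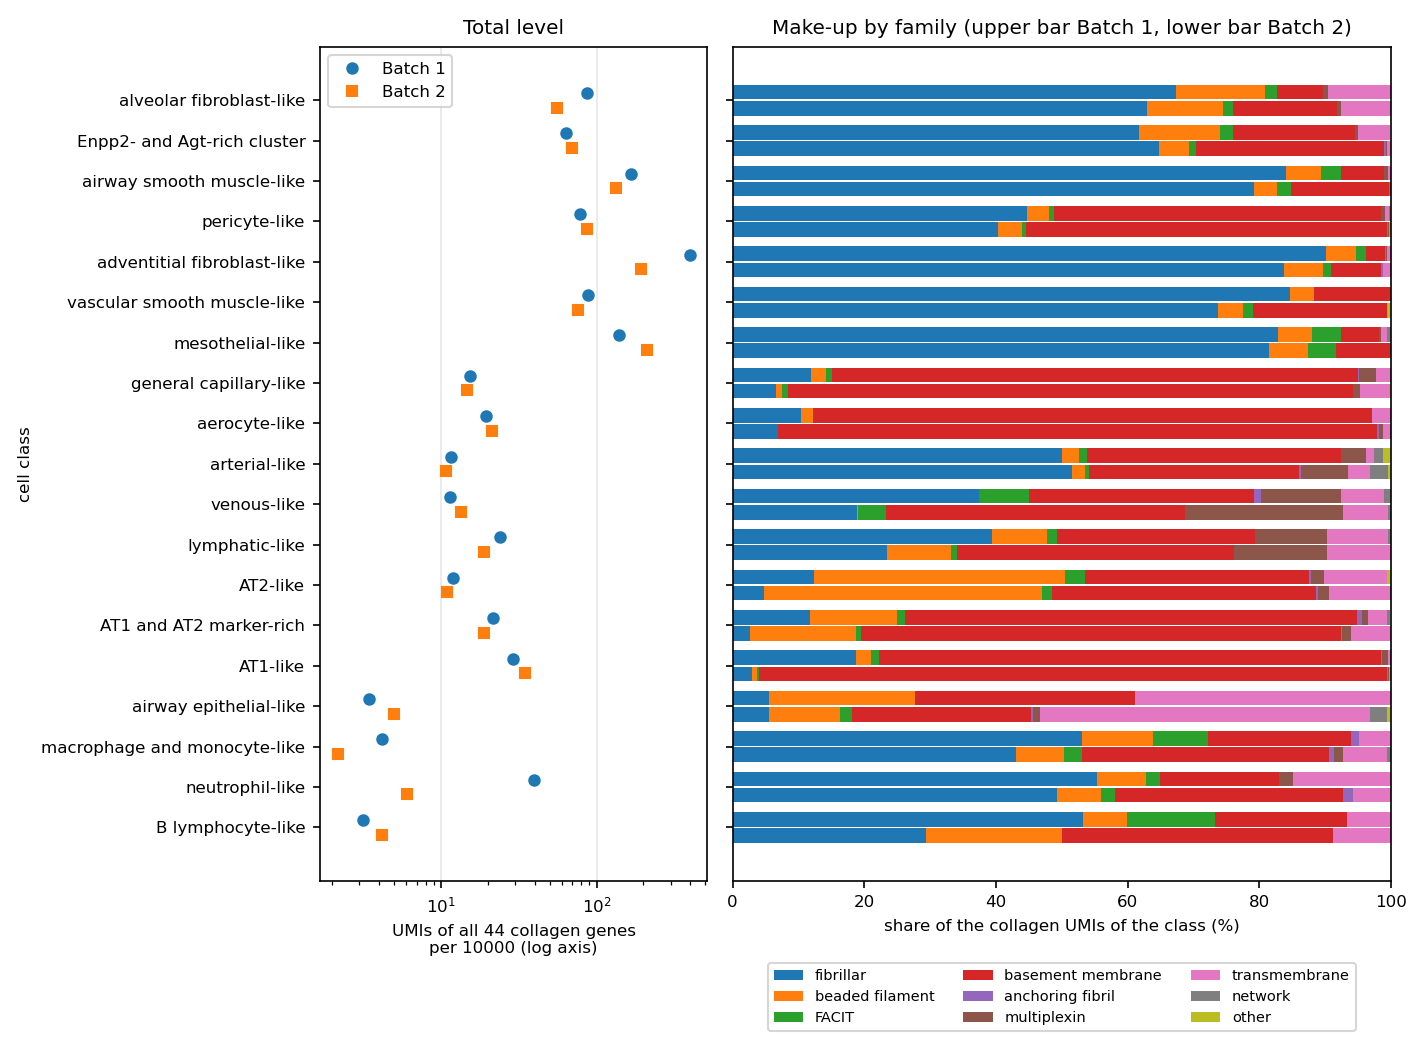
Share of collagen UMIs by family (stacked bars, percent, from 0) in each cell class, Batch 1 and Batch 2 side by side. Basement membrane chains take 84.9% and 91.0% of the bar in aerocyte-like cells, fibrillar chains 90.1% and 83.7% in adventitial fibroblast-like cells.

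*Col1a1* (chr11:94936224-94953042, plus strand) and *Col1a2* (chr6:4504814-4541544, plus strand) encode the pair of chains of type I collagen, the main fibre of connective tissue. *Col1a1* stood at 79.6 per 10000 in Batch 1 (95% Poisson interval 75.4 to 84.0) and 25.4 in Batch 2 (23.7 to 27.2) in adventitial fibroblast-like cells, at 28.7 and 35.5 in mesothelial-like cells, at 21.1 and 14.6 in airway smooth muscle-like cells and at 12.5 and 4.07 in alveolar fibroblast-like cells. Such intervals cover counting error only. Adventitial and mesothelial-like values overlapped across batches for *Col1a1*, whereas *Col1a2* was higher in adventitial fibroblast-like cells (162 and 89.6) than in mesothelial-like cells (41.0 and 70.9) in every pairing of batches. *Col1a2* was seen in 98.7% and 99.2% of adventitial fibroblast-like cells. In macrophage and monocyte-like cells *Col1a1* was at 0.303 and 0.174 and *Col1a2* at 0.757 and 0.465. The ratio of *Col1a1* to *Col1a2* UMIs lay between 0.319 and 0.8 over 9 classes of Batch 1 and between 0.191 and 0.5 over 8 classes of Batch 2, counting classes with at least 20 UMIs of each chain. The Batch 1 limits were the AT1-like and neutrophil-like sums that stood apart; the other 7 classes lay between 0.329 and 0.701.

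*Col3a1* (chr1:45311538-45349706, plus strand), whose type III collagen forms the fine reticular fibres of distensible tissue, had the same order at its top, with 101 and 40.1 in adventitial fibroblast-like cells, 38.2 and 54.0 in mesothelial-like cells and 45.1 and 32.1 in airway smooth muscle-like cells. These 3 ranges overlapped. Vascular smooth muscle-like cells held 22.1 and 7.13. *Col5a1*, a type V chain that starts and limits fibril growth, was at 7.23 and 2.34 in adventitial fibroblast-like cells and at 5.95 and 3.21 in airway smooth muscle-like cells.

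Some fibrillar chains departed from the type I pattern. *Col5a2*, the partner of *Col5a1* in type V collagen, reached 4.86 and 7.48 in mesothelial-like cells but also 4.04 and 4.45 in arterial-like endothelium, where *Col5a1* was at 0.15 and 0.161. *Col5a2* UMIs were seen in 34.6% and 49.5% of arterial-like cells and in 0 of 120 and 0.299% of macrophage and monocyte-like cells. Adjacent *Col3a1*, whose 3′ end lies 24614 bases from that of *Col5a2* on chr1, was at 0.449 and 0.215 there. The ratio of *Col3a1* to *Col5a2* was 0.111 and 0.0482 in arterial-like cells and 7.86 and 7.23 in mesothelial-like cells. *Col27a1*, a fibrillar collagen best known from cartilage, was highest in airway smooth muscle-like cells (7.02 and 2.62), above vascular smooth muscle-like cells (2.35 and 0.598) in every pairing of batches. *Col11a1* rested on few molecules, with 2 and 5 UMIs in the mesothelial-like cells that held its highest level.

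The 6 mesenchymal classes were compared with the 12 epithelial, endothelial and immune classes in edgeR's quasi-likelihood test on class sums. Of the 44 members, 23 passed the filter on low counts and were tested; as a member can pass through the classes where it is high, shares among the 23 are not shares of all members. In mesenchymal classes 14 of 23 rose and none fell, where 17.0% of the 9137 genes tested rose and 11.3% fell. The median log2 fold change of the 23 was 2.70 and that of all genes tested 0.000117. The risen members were 6 of 7 fibrillar, 3 of 3 beaded filament, 3 of 3 FACIT and 2 of 5 basement membrane chains, and no member of the 2 multiplexins or 3 transmembrane collagens. *Col1a1* rose by 5.96 ± 0.214 on the log2 scale (SE; edgeR, Benjamini-Hochberg adjusted p = 1.36e-27) and *Col3a1* by 5.62 ± 0.171 (adjusted p = 3.51e-30). *Col6a3*, a chain of type VI collagen, rose by 4.70 ± 0.386, *Col16a1*, a FACIT chain, by 4.66 ± 0.482 and *Col27a1* by 3.92 ± 0.386. *Col4a1* (1.92 ± 0.132) and *Col4a2* (1.47 ± 0.131) rose less.

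The highest levels of *Col12a1* and *Col14a1* lay in different classes. *Col12a1*, a FACIT chain of tissues under tension, was highest in airway smooth muscle-like cells (3.46 and 1.86) and above mesothelial-like cells (1.16 and 0.724) in both batches. *Col14a1*, a FACIT chain tied to fibril diameter, was highest in mesothelial-like cells, with 4.17 (2.47 to 6.59) and 7.24 (4.88 to 10.3), and stood at 3.44 and 1.54 in adventitial fibroblast-like cells. *Col16a1* was at 1.54 and 0.462 in adventitial fibroblast-like cells and at 0.695 and 0.965 in mesothelial-like cells, which overlap.

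Adventitial fibroblast-like cells, which lie around vessels and airways, were then set against alveolar fibroblast-like cells of the gas exchange region. In the adventitial class 7 of 23 members rose and none fell, where 1.82% of all genes rose and 0.81% fell. The median was 1.15 for the members and -0.14 for all genes tested. *Col3a1* rose by 2.67 ± 0.408 (edgeR, adjusted p = 1.35e-05), *Col1a1* by 2.58 ± 0.469 (0.000274), *Col5a1* by 2.35 ± 0.424 (0.00025) and *Col1a2* by 2.18 ± 0.493 (0.00477). *Col6a3* rose by 1.99 ± 0.503, from 1.25 and 0.179 to 3.26 and 1.48 per 10000, *Col12a1* by 1.91 ± 0.551 and *Col14a1* by 1.86 ± 0.531. *Col6a1* did not pass the test at 8.12 and 4.84 against 6.17 and 3.62. Without the batch term the count fell from 7 to 1, with *Col3a1* the member left; both classes were higher in Batch 1 for each type I and III chain. The adventitial markers summed to 83.5 and 46.7 per 10000 in the adventitial class (11 of 11 seen) and to 38.8 and 30.8 in the alveolar class (10 of 11 seen). The alveolar fibroblast markers, all 11 seen in both classes, summed to 32.0 and 49.4 in the adventitial class, in Batch 2 above its adventitial markers, and to 112 and 114 in the alveolar class. The part of these marker levels in the batch difference was not tested.

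*Col13a1*, a transmembrane collagen found at cell junctions, was concentrated in alveolar fibroblast-like cells, which held 75.9% of its UMIs in named classes. Its level there was 6.64 (6.18 to 7.12) in Batch 1 and 3.07 (2.83 to 3.31) in Batch 2, against 1.72 and 1.32 in adventitial fibroblast-like cells, and 5.87 and 0.178 in neutrophil-like cells, whose Batch 1 sum stood apart (8.15 and 0.216 without cells that held markers of another lineage). The alveolar class was made of 5 clusters, of which one held 19 cells of Batch 1 and 805 of Batch 2 and another 629 and 98, so different clusters carried most of the class in each batch. Across the 5 clusters *Col13a1* was at 5.80 to 6.77 in Batch 1 and 2.69 to 3.15 in Batch 2, so the batches did not overlap within any of them. It was seen in 53.3% and 37.3% of alveolar fibroblast-like cells, or 31.5% and 15.3% with each cell thinned to 600 UMIs, and in 1.67% and 1.8% of macrophage and monocyte-like cells. *Col25a1*, another transmembrane collagen, was rarer but even more concentrated, with 85.5% of its UMIs in alveolar fibroblast-like cells at 0.746 and 0.488. Both values were above those of every other class. *Col17a1*, the hemidesmosome collagen of skin and airway basal cells, was low here, at most 0.352 and 0.0579 in alveolar and 0.237 and 0.246 in adventitial fibroblast-like cells.

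**Figure D3:**
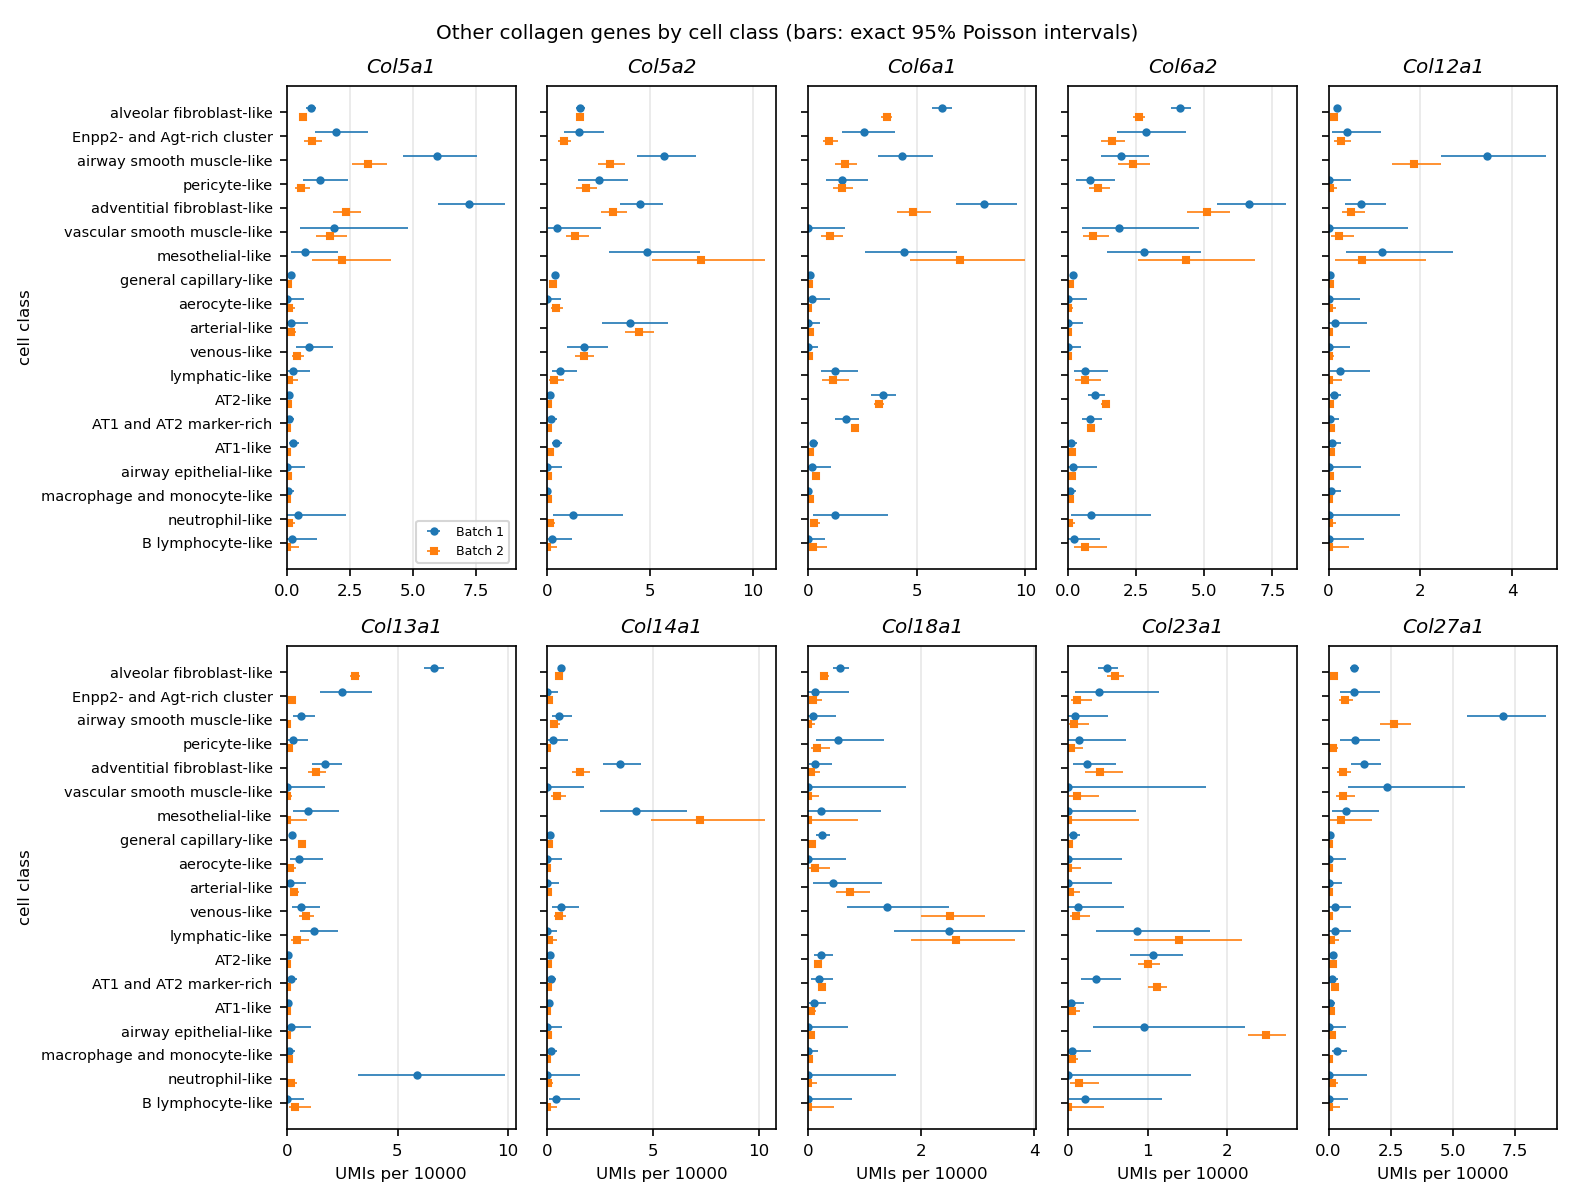
Levels of selected members (UMIs per 10000, each with its 95% Poisson interval) in every cell class, with a point for each batch. *Col13a1* is at 6.64 and 3.07 in alveolar fibroblast-like cells and *Col27a1* at 7.02 and 2.62 in airway smooth muscle-like cells.

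Pericyte-like cells were compared with the mean of both fibroblast classes. In pericytes 2 of 23 members rose and 10 fell, where 4.53% of all genes rose and 4.22% fell. The median was -1.77 for the members and -0.115 for all genes. The risen pair was *Col4a2* (2.05 ± 0.276, edgeR adjusted p = 2.32e-07) and *Col4a1* (1.81 ± 0.283, adjusted p = 4.74e-06). Without the batch term 2 rose and 6 fell. The members that fell were 3 of 7 fibrillar, 2 of 3 beaded filament, 2 of 3 FACIT and 3 of 3 transmembrane chains. *Col13a1* fell by 4.60 ± 0.883, with 4 UMIs in pericyte-like cells, and *Col1a1* by 1.72 ± 0.434. For 3 further members the pericyte count was 1 or 2 UMIs. Their ratios of levels were taken with the UMIs of both fibroblast classes summed, most of them alveolar, and not with the classes weighted equally as in the test. The ratio was 0.134 (0.00335 to 0.77) for *Col12a1*, 0.0668 (0.00805 to 0.243) for *Col14a1* and 0.102 (0.0122 to 0.372) for *Col23a1*. *Col25a1* had 0 UMIs of 376108 in pericyte-like cells and was at least 6.55-fold lower on the same summed UMIs, taking 3 UMIs over the group as the floor.

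Smooth muscle-like cells, vascular and airway together, differed from fibroblast-like cells in fewer members, with none risen and 6 of 23 fallen, where 1.81% of all genes rose and 3.97% fell. The median was -0.34 for the members and -0.228 for all genes. The fallen members were 3 of 3 transmembrane, 2 of 3 beaded filament and 1 of 3 FACIT chains, and none of the 7 fibrillar chains. *Col6a1* fell by 2.02 ± 0.352 (edgeR, adjusted p = 5.86e-05) and *Col6a2* by 1.74 ± 0.311 (9.67e-05). *Col13a1* fell by 6.86 ± 1.03 (4e-06), with 7 UMIs in all, from airway smooth muscle-like cells of Batch 1. *Col25a1* was at 1 UMI, a ratio of 0.0323 (0.000814 to 0.182) with the UMIs of the classes of each arm summed. *Col27a1* had a log2 fold change of 1.36 ± 0.442 that missed the threshold (adjusted p = 0.0555). The vascular class of Batch 1 had 11 cells, and without classes of under 20 cells in a batch, so with airway smooth muscle-like cells alone in this arm, 4 of 21 members rose and 4 fell. By the study's own labels for Batch 1, the airway class joined smooth muscle cells with myofibroblasts, the vascular class was mostly pericytes, and the *Enpp2* and *Agt* rich cluster, which is not in this comparison, was mostly myofibroblasts.

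**Figure D4:**
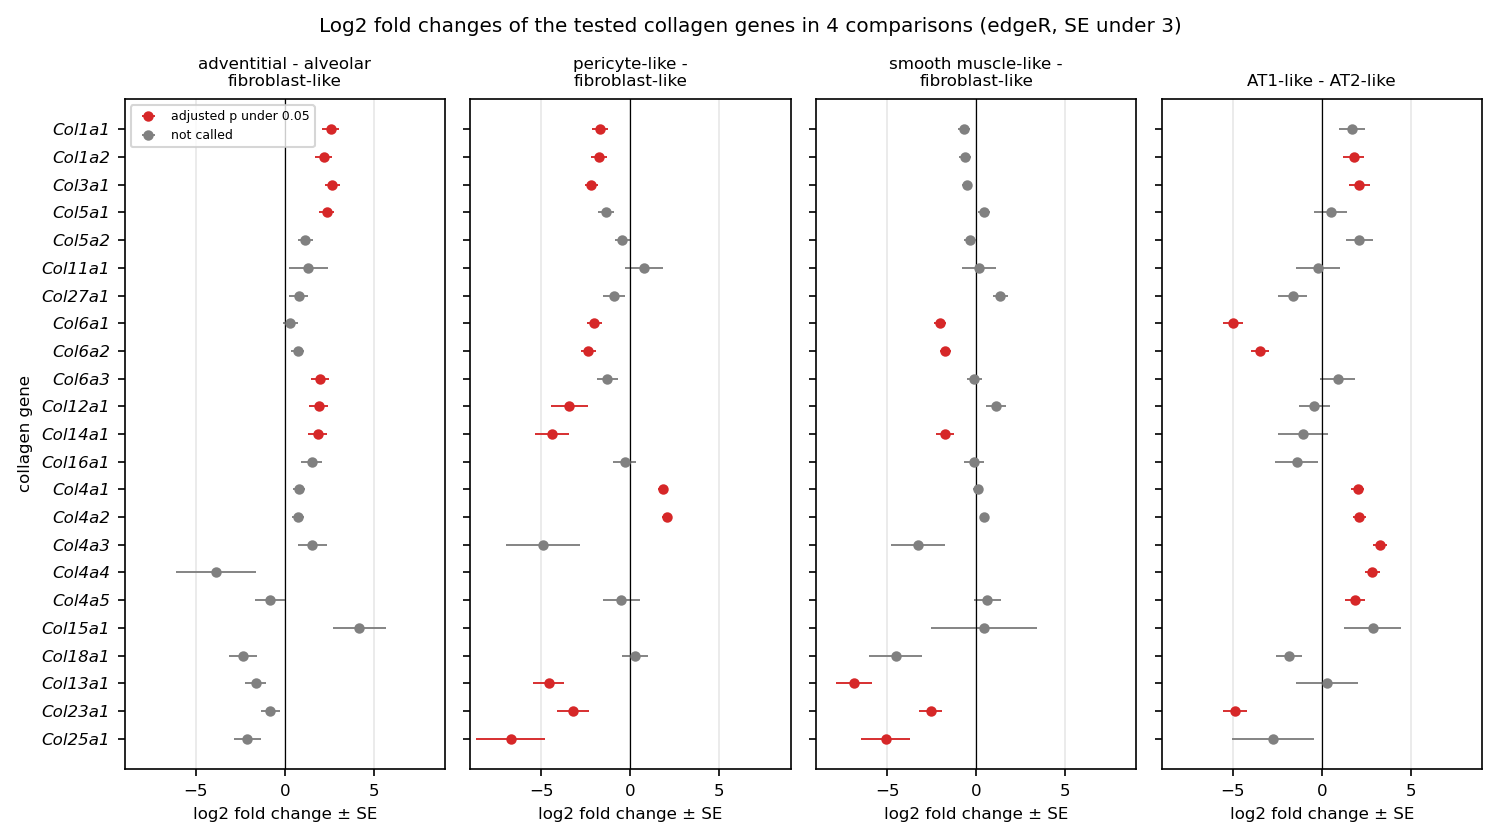
Log2 fold change ± SE of the 23 tested members in 4 comparisons between pairs of cell classes, red where the adjusted p from edgeR was under 0.05; 2 members of the pericyte panel and 1 of the smooth muscle panel with an SE of 3 or more are not drawn. In the pericyte panel *Col4a1* (1.81) and *Col4a2* (2.05) lie to the right of 0.

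The widespread type IV chains were found in mesenchymal, endothelial and alveolar epithelial classes alike. *Col4a1* (chr8:11198423-11312826, minus strand) was highest in pericyte-like cells, at 25.4 (22.0 to 29.3) and 27.8 (25.9 to 29.7), above every other class in both batches. It followed at 8.0 and 11.3 in AT1-like cells, 9.03 and 9.92 in aerocyte-like cells, 6.11 and 11.6 in the *Enpp2* and *Agt* rich cluster, 6.31 and 11.1 in airway smooth muscle-like cells and 7.88 and 9.24 in adventitial fibroblast-like cells, ranges that overlapped. General capillary-like cells held 7.19 and 7.04. It was seen in 90.8% and 96.8% of pericyte-like cells, and in 3.33% and 5.39% of macrophage and monocyte-like cells, where its level was 0.353 and 0.363. *Col4a2* (chr8:11312805-11449287, plus strand) ran in parallel, with 13.3 and 19.5 in pericyte-like cells. The *Col4a1* to *Col4a2* ratio lay between 1.15 and 2.18 over 10 classes of Batch 1 and between 0.884 and 1.92 over 17 classes of Batch 2, with medians of 1.43 and 1.23. Across the 38 class sums, which share libraries and differ in depth, the log2 levels of this head-to-head pair had a Pearson r of 0.951. The median r over all 253 pairs of tested members was 0.29.

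The chains of the alveolar form of type IV collagen followed another pattern. *Col4a3* (chr1:82586921-82722059, plus strand) was highest in AT1-like cells at 5.04 (4.24 to 5.96) and 6.82 (6.18 to 7.51). It stood at 3.60 and 2.87 in a class rich in both AT1 and AT2 markers and at 0.286 and 0.647 in AT2-like cells, and the AT1-like values were separate from the next class. Without cells that held markers of another lineage, *Col4a3* was at 0.768 and 1.41 in mesothelial-like cells, on 3 and 4 UMIs, and at 0.295 and 0.651 in AT2-like cells. *Col4a4* (chr1:82448423-82586849, minus strand) was at 1.86 and 4.28 in AT1-like cells, 1.63 and 1.84 in the AT1 and AT2 marker-rich class and 1.62 and 2.65 in mesothelial-like cells, values that overlap. Without cells that held markers of another lineage *Col4a4* was at 2.83 and 4.33 in AT1-like cells, above the marker-rich (1.59 and 1.77) and mesothelial-like classes (1.28 and 2.46) in every pairing of batches. *Col4a5* (chrX:141475385-141689234, plus strand) was at 1.17 and 0.59 in AT1-like cells and 0.852 and 0.49 in the marker-rich class. The class with its highest level was AT1-like in Batch 1 and mesothelial-like in Batch 2. *Col4a6*, next to *Col4a5* on chrX, had 13 UMIs in Batch 1 and 33 in Batch 2 and was not tested. *Col4a3* was seen in 60.4% and 66.8% of AT1-like cells, or 29.2% and 36.5% after thinning, and in 0.833% and 0.599% of macrophage and monocyte-like cells. Among the 5 genes whose log2 levels were most like those of *Col4a3* over the 38 sums were *Pard6b* (r = 0.933), its neighbour *Col4a4* (0.89), *Krt7* (0.862) and *Vnn1* (0.856).

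**Figure D5:**
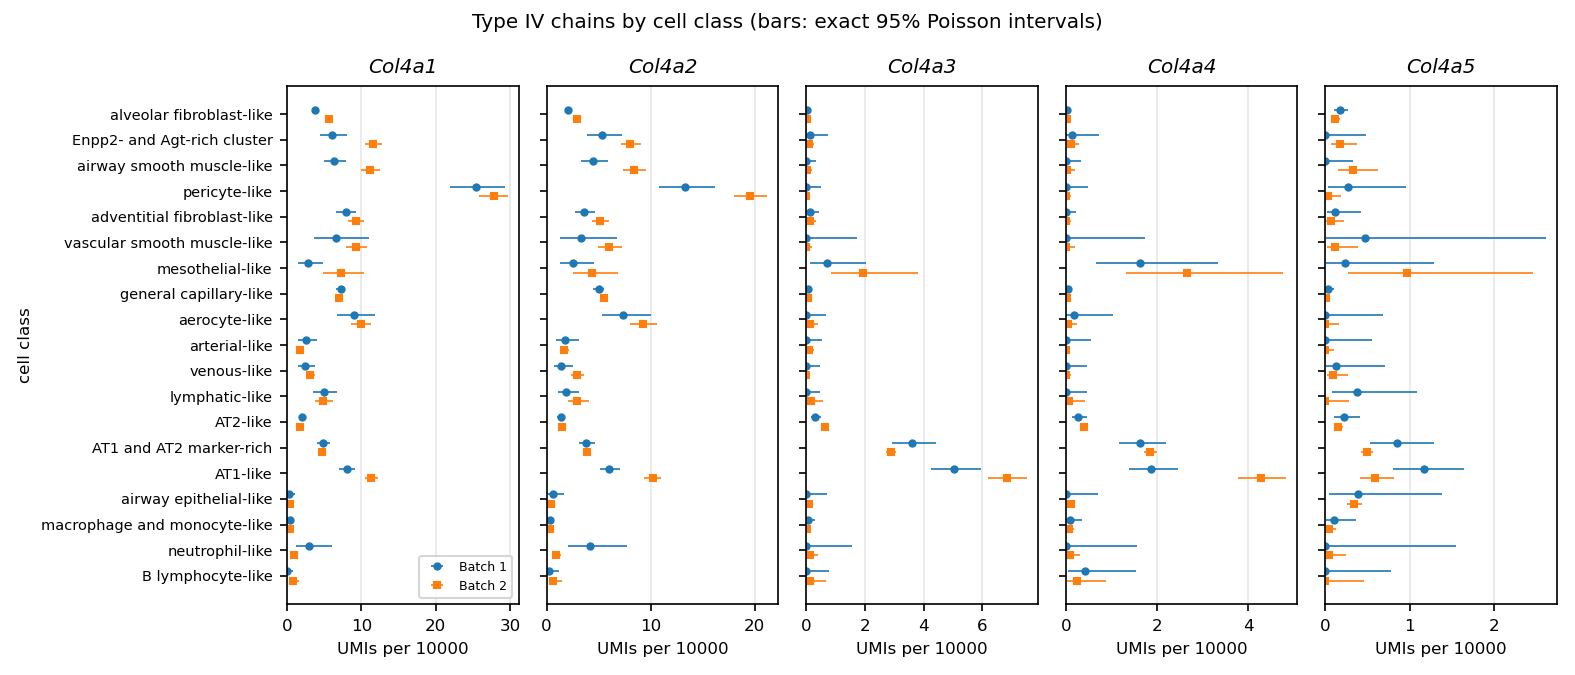
Levels of type IV collagen chains (UMIs per 10000 with 95% Poisson intervals) in every cell class, with a point for each batch. *Col4a1* and *Col4a2* peak in pericyte-like cells at 25.4 and 27.8 and at 13.3 and 19.5, and *Col4a3* in AT1-like cells at 5.04 and 6.82.

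The 2 alveolar epithelial cell types held different collagens. In AT1-like against AT2-like cells 7 of 23 members rose and 3 fell, where 6.94% of all genes rose and 5.32% fell. The median was 0.496 for the members and 0.031 for all genes. All 5 tested basement membrane chains rose, among them *Col4a3* by 3.27 ± 0.391 (edgeR, adjusted p = 1.87e-08), *Col4a4* by 2.85 ± 0.414 (1.63e-06) and *Col4a1* by 2.02 ± 0.356 (3.73e-05). The *Col4a5* call was lost without the batch term and at a 5% mitochondrial limit. *Col6a1* fell by 5.00 ± 0.573, *Col23a1* by 4.86 ± 0.672 and *Col6a2* by 3.49 ± 0.506. Without the cells that held endothelial markers, *Col4a1* was at 6.69 and 11.3 in AT1-like and 2.16 and 1.75 in AT2-like cells, *Col4a3* was at 7.88 and 6.76 against 0.295 and 0.651, and all 10 calls were kept. *Col3a1* (2.10 ± 0.581) and *Col1a2* (1.79 ± 0.582) also rose, though most of their AT1-like level came from Batch 1, where *Col1a2* was at 2.52 against 0.557 in Batch 2. Both calls ended without the batch term, where 4 members rose and 3 fell, and *Col1a2* was also lost in DESeq2 and with doublets kept, and *Col3a1* after thinning. The alveolar fibroblast markers summed to 15.8 and 29.4 per 10000 in AT1-like cells (9 and 6 of 11 seen) and to 6.64 and 12.2 in AT2-like cells (10 and 11 of 11 seen); their part in the *Col1a2* and *Col3a1* results was not tested.

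The mRNA of the type VI chains *Col6a1* and *Col6a2* was held by AT2-like cells as well as by fibroblast-like cells. *Col6a1* (chr10:76708792-76726168, minus strand) was at 3.44 (2.90 to 4.05) and 3.26 (3.02 to 3.52) in AT2-like cells, 1.74 and 2.16 in the AT1 and AT2 marker-rich class and 0.219 and 0.082 in AT1-like cells. It was highest in adventitial (8.12 and 4.84) and mesothelial-like cells (4.40 and 7.0), which overlapped. *Col6a1* UMIs were seen in 42.2% and 51.5% of AT2-like cells and in 0 of 120 and 1.8% of macrophage and monocyte-like cells. *Col6a2*, which lies 85161 bases away on the same strand of chr10, was at 1.00 and 1.37 in AT2-like cells, so that the *Col6a1* to *Col6a2* ratio was 3.43 and 2.38 there, 1.50 and 1.39 in alveolar and 1.22 and 0.946 in adventitial fibroblast-like cells. *Col6a3*, the long chain needed for the type VI trimer, was at 0.0955 and 0.0147 in AT2-like cells and at 3.26 and 1.48 in adventitial fibroblast-like cells.

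Over the 4 epithelial classes against the 15 others, 6 of 23 members rose and 6 fell, where 28.8% of all genes rose and 6.77% fell. The median was -0.481 for the members and 0.218 for all genes. The members that rose most were *Col4a4* (4.86 ± 0.336, edgeR adjusted p = 2.66e-16), *Col4a3* (4.74 ± 0.316, 3.4e-17), *Col4a5* (3.32 ± 0.356, 1.08e-10) and *Col23a1* (3.26 ± 0.509, 7.76e-07), a transmembrane collagen. *Col6a1* (0.87 ± 0.275) and *Col6a2* (0.88 ± 0.357) also passed, although their mean levels were lower in epithelial classes, because the fold is a mean of log levels over classes. The *Col6a2* call was kept in 4 of 13 alternative fits. The members that fell were 5 of 7 fibrillar chains and *Col4a1* (-0.48 ± 0.162), whose fold ranged from -0.813 to 0.468 over the alternatives. *Col23a1* itself was highest in airway epithelial-like cells, at 0.955 (0.31 to 2.23) and 2.49 (2.26 to 2.74), which overlapped lymphatic-like (0.87 and 1.39) and AT2-like cells (1.07 and 1.01). It was seen in 30.8% and 45.0% of airway epithelial-like cells and in 0.833% and 0.599% of macrophage and monocyte-like cells.

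*Col1a1*, *Col3a1*, *Col6a1* and *Col6a2* were among the members that fell in endothelial classes. Against the 14 other classes 3 of 23 members rose and 5 fell in the 5 endothelial classes, where 15.6% of all genes rose and 5.79% fell, so the share of members that rose was near that of all genes. Without classes of under 20 cells in a batch 1 rose and 7 fell, without the batch term 1 rose and 5 fell, and in DESeq2 3 rose and 14 fell. The median was -1.79 for the members and 0.0528 for all genes. *Col18a1*, the multiplexin whose end fragment is endostatin, rose by 3.51 ± 0.566 (edgeR, adjusted p = 3.02e-06). This fold is a mean of log levels over classes, and its level in general capillary-like cells was below that in alveolar fibroblast-like cells in both batches. *Col13a1* (1.61 ± 0.481, 0.0105) and *Col5a2* (0.91 ± 0.286, 0.0154) passed as a mean of log levels, while their mean levels were below those of the other classes in Batch 1 and above them in Batch 2 (*Col5a2* 1.36 against 1.67 and 1.44 against 1.41), and each call was kept in 9 of 13 alternative fits. *Col6a2* fell by 5.68 ± 0.523 and had 0 UMIs in arterial, venous and aerocyte-like cells of both batches. *Col6a1* fell by 3.48 ± 0.421, *Col1a1* by 3.40 ± 0.446 and *Col3a1* by 2.62 ± 0.25. *Col4a1* did not pass (0.33 ± 0.145, adjusted p = 0.109).

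The multiplexins were low in the capillary classes. *Col18a1* was at 2.49 (1.52 to 3.84) and 2.62 (1.82 to 3.66) in lymphatic-like cells and 1.39 and 2.51 in venous-like cells, values that overlapped. It was at 0.449 and 0.751 in arterial-like and 0.253 and 0.07 in general capillary-like cells. Alveolar fibroblast-like cells held it too, at 0.569 in their largest cluster of Batch 1 and 0.284 in that of Batch 2. By the study's labels for Batch 1, *Col18a1* was at 0.601 in MatrixFB-1 fibroblasts and 0.389 in vascular endothelium. It was seen in 37.0% and 50.0% of lymphatic-like cells and in 0 of 120 and 0.299% of macrophage and monocyte-like cells. *Col15a1*, the other multiplexin, was at 0.888 and 0.219 in airway smooth muscle-like cells, its highest class in Batch 1, and at 0.712 in venous-like cells, its highest class in Batch 2, with 0 of 79196 UMIs in those of Batch 1, which allows up to 0.379 per 10000. Multiplexins made up 12.1% and 23.9% of the collagen UMIs of venous-like cells. Between aerocyte-like and general capillary-like cells none of the 23 members passed (percent called 0.109 higher and 0.0657 lower over all genes); 1 had an unadjusted p under 0.05 in edgeR and DESeq2 called none. *Col4a1* differed by 0.25 ± 0.347 and *Col4a2* by 0.50 ± 0.336 between them.

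Of the 44 members, 26 had at least 20 UMIs in each batch and are described above or here. *Col7a1*, the anchoring fibril collagen, was highest in adventitial fibroblast-like cells at 0.356 and 0.554, and *Col9a2*, a FACIT chain of cartilage, did not exceed 0.182. These and *Col17a1* were below the filter of the test. The other 18 members had between 1 and 41 UMIs in a batch, among them the cartilage collagens *Col2a1* (8 and 3 UMIs) and *Col10a1* (3 and 3). *Col8a1*, a network collagen of vessel walls, had 7 and 17 UMIs, of which 52.2% of those in named classes were in arterial-like cells. Floors of 3 UMIs ranged from 0.00855 to 1.41 per 10000 over the class sums, so most of these members were not detectable at this depth in the smaller classes.

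The genes that make, cut, cross-link, bind and degrade collagen were read from a list of 57, of which 42 were tested. Unlike the collagen genes, they were not left out of the clustering, so their changes are not independent of how the classes were made. *Lox*, *Pcolce2* and *Loxl1* were among the 10 leading genes of alveolar fibroblast-like clusters, and *Loxl2* among those of the airway smooth muscle-like cluster. In mesenchymal classes 25 of the 42 rose and none fell, where 17.0% of all genes rose and 11.3% fell. They were led by *Adamts2* (5.49 ± 0.305), which removes the amino-terminal propeptide of fibrillar procollagen, *Loxl2* (4.93 ± 0.244) and *Loxl1* (4.60 ± 0.589), which oxidise lysines for cross-links, *Ddr2* (4.71 ± 0.413), a collagen receptor, *Mmp2* (4.02 ± 0.561), a gelatinase, and *Leprel2* (3.92 ± 0.326), a prolyl hydroxylase. In adventitial against alveolar fibroblast-like cells 10 rose, where 1.82% of all genes did, and none fell, among them *P4ha3* (3.72 ± 1.01), *P4ha2* (3.39 ± 0.822), *Pxdn* (2.50 ± 0.657) and *Loxl2* (2.04 ± 0.473); *Dcn* and *Lum* also rose but had served to name the class. In pericyte-like cells 3 rose and 8 fell (4.53% and 4.22% of all genes), with *Itga1*, an integrin chain that binds type IV collagen, up by 4.52 ± 0.464 and the cross-linking *Lox* down (-5.92 ± 0.643). In smooth muscle-like cells 5 rose and 5 fell (1.81% and 3.97% of all genes), with *Pxdn* at 2.96 ± 0.49 and *Pcolce2*, an enhancer of propeptide removal, at -6.76 ± 0.783.

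In AT1-like against AT2-like cells 8 of the 42 rose and 2 fell, where 6.94% of all genes rose and 5.32% fell. *Pxdn*, the peroxidase that forms sulfilimine cross-links in type IV collagen, rose by 5.05 ± 0.672 (edgeR, adjusted p = 1.47e-07), *Sparc* by 2.78 ± 0.341, *Timp3* by 2.67 ± 0.423 and *Ddr1*, an epithelial collagen receptor, by 2.47 ± 0.542, while *Bmp1*, the procollagen C-proteinase, fell by 2.72 ± 0.526 and *P4ha1* by 2.49 ± 0.514. Over epithelial classes 5 rose and 9 fell, where 28.8% of all genes rose and 6.77% fell, with *Ddr1* at 4.10 ± 0.396 and *Lox* at -2.08 ± 0.327. Over endothelial classes 9 rose and 1 fell, shares near the 15.6% and 5.79% of all genes, with *Plod1*, a lysyl hydroxylase, at 1.81 ± 0.342, *Serpinh1*, the collagen chaperone, at 1.07 ± 0.153 and *Lox* at -2.03 ± 0.312. Between the capillary classes none of the 42 passed.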

How the data were processed

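Single cells of 2 batches of PND1 mouse lung were profiled by Drop-seq. The authors deposited raw UMI counts per gene and cell for each batch; per the paper's methods these came from the Drop-seq tools, and the submitters' processing notes name Bowtie2 2.2.7 and genome build mm10. Every deposited cell had at least 500 genes. The members and gene lists were chosen with earlier results of these data known.

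Cells with up to 10% mitochondrial UMIs were kept and clustered on log levels scaled to z-scores within each batch. The settings were 2000 variable genes without collagen genes, 40 components, 20 neighbours and Leiden resolution 2 (scikit-learn 1.9.0 and leidenalg 0.10.2). Doublets were predicted by Scrublet in scanpy 1.11.5 (expected rate 0.06) and left out of the class sums after clustering. Of 34 clusters, 27 were named from marker lists into 19 classes; 98.026% of cells kept their class with collagen genes included. UMI counts were summed by class and batch (38 sums of 21284 to 3507030 UMIs) and tested in edgeR 4.0.16 (TMM, quasi-likelihood test, batch as block, 18 residual degrees of freedom, Benjamini-Hochberg over 9137 genes, adjusted p under 0.05). With batch in the model, the p-values measure how differences between classes vary over the 2 batches, pooled over the 19 classes. The shift that all classes of a batch share is taken out. What remains may be in part technical, and no spread among animals is measured. With 2 batches no exact test of a single level can pass 0.05, so levels carry 95% Poisson intervals for counting error. A floor was 3 counts. The SE of an edgeR log2 fold change was derived as its absolute value divided by the square root of the test's F statistic. Deviations of sums of the same batch correlated at 0.039 to 0.478 (median 0.136, 171 pairs), and the sums of a batch share 1 cell suspension, which is why batch is in the model. TMM set the median log2 fold change of all genes in AT1-like against AT2-like cells to 0.031, against 0.368 without it.

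Members with at least 20 UMIs in each batch are described by class; up to 8 members with the largest change among those past the threshold are named per comparison, with the main chains of types I, III to VI, XIII to XV and XVIII where a sentence needs them, up to 6 genes of the pathway list, and the 5 genes most like *Col4a3*, of which 1 is not reported here. Alternatives were no TMM, no low-count filter, no batch term, DESeq2 1.42.0, only the classes compared, each batch alone, a 5% mitochondrial limit, all deposited cells, doublets kept, cells thinned to 600 UMIs, collagen genes in the clustering, the authors' Batch 1 cell labels (levels only) and, added after the data were seen, sums without the neutrophil-like class, without classes of under 20 cells, and without cells that held markers of another lineage. The test was first tested on simulated counts with known changes.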

Additional observations from a re-analysis of the deposited data

Results flagged for a closer look

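The values here come from cells outside the class sums of the comparisons as reported, and each was above the level that a count of 0 allows. Among 7 clusters left unnamed, all collagen genes together stood at 51.9 per 10000 UMIs in Batch 1 and 40.8 in Batch 2 in a cluster led by the cell cycle genes *Cenpf* and *Hist1h2ap*, with *Col1a2* giving 34.0% of its collagen UMIs. A cluster led by the haemoglobin genes *Hbb-bt* and *Hba-a2* held 22.2 and 6.36, with *Col1a2* at 32.8%. A cluster led by *Gimap6* and *Eltd1* held 8.02 and 13.9, mostly *Col4a1* (42.6%) and *Col4a2* (41.6%). A cluster led by the heart muscle genes *Myl7* and *Tnnt2* held 57.6 and 18.4, with *Col4a2* (15.5%), *Col1a2* (15.3%) and *Col4a1* (15.1%) at similar shares. Of 2 clusters led by the predicted gene *Gm10800*, the one with *Gm10801* next held 102 and 53.0, led by *Col1a2* (36.9%), and the one with *Ascl4* next held 10.9 and 14.6, led by *Col4a1* (41.5%). A cluster led by *Mcpt8* and *Pf4* held 4.96 and 2.80, with *Col18a1* its most frequent collagen (23.2%, 13 UMIs). The 1940 cells of Batch 2 over the mitochondrial limit held 29.8 collagen UMIs per 10000, against 28.2 in the 5615 cells within it.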

How the results depend on the processing

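Of 69 calls of members over the 7 comparisons with any call, 37 were kept in every alternative in which they were tested: 12 of 14 in the mesenchymal, 3 of 8 in the endothelial, 5 of 12 in the epithelial, 7 of 10 in the AT1-like, 1 of 7 in the adventitial, 6 of 12 in the pericyte and 3 of 6 in the smooth muscle comparison. Without the batch block (no pairing of sums by batch) the adventitial count fell from 7 to 1, endothelial members risen fell from 3 to 1, AT1-like members risen from 7 to 4 and pericyte members fallen from 10 to 6, while the other counts by direction moved by 1.5 times or less. Thinning to 600 UMIs, where 15 members were tested, gave 4 endothelial, 2 epithelial and 6 AT1-like calls. DESeq2 gave 17 endothelial (3 higher, 14 lower), 4 adventitial, 7 pericyte and 3 smooth muscle calls. With only the classes compared in the fit there were 13 adventitial calls and 1 aerocyte call, and without the low-count filter, with 44 members tested, 10 smooth muscle calls. The causes of these shifts were not tested. Fewer or more members entered some of these fits. Some lost calls were of members still tested after thinning, such as *Col1a1* and *Col6a1* in the endothelial comparison. With 1 batch alone there is no test, and between 7 and 8 of the 8 endothelial, 11 and 12 of the 12 epithelial and all called members of the other comparisons kept their direction; the log2 fold change of *Col5a2* in endothelium was -0.16 in Batch 1 alone and 0.914 in Batch 2 alone.

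Levels averaged over batches moved beyond the batch spread in these cases. *Col4a1* in pericyte-like cells (26.6) was 24.4 at a 5% mitochondrial limit. *Col4a3* in AT1-like cells (5.93) was 7.27 after thinning and 7.32 without cells that held markers of another lineage. *Col6a1* in AT2-like cells (3.35) was 3.06 after thinning, and *Col18a1* in lymphatic-like cells (2.55) was 3.06 after thinning and 2.35 at the 5% limit. The authors' labels cover Batch 1 only, so levels under them compare with Batch 1 of a class and not with the mean. *Col4a1* was 24.1 in their Pericyte-2 cells against 25.4 in the class. *Col27a1* was 8.20 in their Smooth Muscle cells against 7.02, and *Col18a1* 3.27 in their lymphatic cells against 2.49. *Col6a1* was 3.57 in their AT2 cells. The airway class of Batch 1 joined 34 Smooth Muscle with 34 MyoFB-2 cells, where *Col27a1* was 5.24. Classes of 11 to 20 cells in a batch set the limit of depth, as floors of up to 1.41 per 10000 show.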
